A study of Mus musculus with 5 samples.

Results

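The genes described are 9 amino acid transporter genes of the kidney tubule: Slc7a13, Slc3a1, Slc3a2, Slc6a18, Slc6a19, Slc7a7, Slc7a8, Slc7a9 and Slc1a1. They were chosen by symbol, as genes with a known place in renal amino acid reabsorption, and all 9 were listed in each library, out of 16934 genes listed in the series. The libraries are of single cells from mouse kidney, made by Drop-seq, a droplet method that tags the mRNA of each cell with a cell barcode and each molecule with its own identifier (UMI). The mice were wild type, of the strain the labels spell C56BL/6N, untreated as far as the labels say, and no age is used here. Cortex, outer medulla and inner medulla, separated by microdissection, gave 1 library each, and whole kidney gave 2 (whole kidney 1 and whole kidney 2). The labels do not give the number or the sex of the animals, nor whether 1 animal gave several regions, so the spread between libraries may be partly technical and a region is represented by 1 library. All cells had been released with a cold-active protease, fixed in methanol and stored frozen before capture.

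The proximal tubule takes back nearly all filtered amino acids: carriers of the apical brush border bring them into the cell with sodium, protons or by exchange, and carriers of the basolateral membrane pass them on to the blood. Several carriers work as pairs of a heavy chain that guides the complex to the membrane and a light chain that transports. Slc3a1 (rBAT) is the apical heavy chain, and its light chains are Slc7a9, which carries cystine and dibasic amino acids, and Slc7a13, which in mouse carries cystine, aspartate and glutamate. Slc3a2 (the CD98 heavy chain) is the basolateral heavy chain, and its light chains here are Slc7a7, an exchanger of dibasic against neutral amino acids, and Slc7a8, an exchanger of neutral amino acids. Slc6a19 and Slc6a18 are sodium-driven carriers of neutral amino acids in the brush border and reach it with the help of collectrin (Tmem27). Slc1a1 is an apical carrier of glutamate and aspartate. Loss of SLC3A1 or SLC7A9 causes cystinuria in humans, loss of SLC7A7 lysinuric protein intolerance, and loss of SLC6A19 Hartnup disorder.

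The promoter sequences of Slc3a1 and Slc7a9 are shown because they encode 2 chains of 1 apical transporter whose levels differed along the tubule, as given further on. Both are RefSeq windows of build GRCm38.p6, from 250 bases before to 50 bases after an annotated start, on the plus strand. Capitals mark matches to GTTAAT, letters of the HNF1 site, or to CAAAGT, letters of the HNF4 site, on either strand.
Slc3a1, chr17:85028097-85028396: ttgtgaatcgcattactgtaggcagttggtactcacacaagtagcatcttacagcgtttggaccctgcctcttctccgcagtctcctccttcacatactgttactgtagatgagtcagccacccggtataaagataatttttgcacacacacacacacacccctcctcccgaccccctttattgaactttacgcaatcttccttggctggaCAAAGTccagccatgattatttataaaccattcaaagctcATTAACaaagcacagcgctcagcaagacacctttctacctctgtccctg
Slc7a9, chr7:35448842-35449141: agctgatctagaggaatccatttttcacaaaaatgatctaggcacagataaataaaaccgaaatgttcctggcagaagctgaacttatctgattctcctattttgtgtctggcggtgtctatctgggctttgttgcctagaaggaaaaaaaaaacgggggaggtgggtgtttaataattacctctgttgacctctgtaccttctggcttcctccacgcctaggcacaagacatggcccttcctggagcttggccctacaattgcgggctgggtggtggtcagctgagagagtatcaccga
The Slc3a1 window held 1 match to each motif, the HNF1 letters on the reverse strand, and the Slc7a9 window held 0 of either. GTTAAT was found in 7.10% and CAAAGT in 14.4% of 32851 promoter windows of the same length, so a match is a description and not a binding site. Windows were found for 7 of the 9 genes.

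Barcodes with 200 or more detected genes were taken as cells, between 898 (inner medulla) and 3305 (whole kidney 2) per library, with 520663 to 2886013 UMIs per library and a median of 440 to 517 UMIs per cell. Libraries shared 6 cell barcodes, summed over pairs of libraries. Cells were clustered without the 9 genes and without 41 other amino acid transport genes, so that these genes did not draw the classes. Of 12121 cells, 8342 were proximal tubule-like: 3439 early and 3352 late, from known markers of the early convoluted and the late straight part. The early and late names were given from these same markers, so their agreement was largely set in advance. Of the early markers, 8 of 9 were higher in early cells in all 4 libraries with both classes, and 13 of 15 late markers were higher in late cells. The exception among early markers, Pck1, was higher in early cells in 1 of 4 libraries. Cell by cell, 3143 of 3439 early cells held more early than late marker UMIs, and 2871 of 3352 late cells held more late ones. The third proximal cluster, of 1551 cells, scored as the middle segment, but none of its 4 markers was highest there in all 4 libraries, and its cells were the shallowest, with a median of 352 UMIs against 573 in early and 646.5 in late cells. It is therefore called the third cluster and given no segment name. Slc22a6, a marker of the middle segment, was higher in late than in early cells in 4 of 4 libraries. Its means were 900 CPM in late cells, 536 in the third cluster and 208 in early cells. The middle markers Mdk and Slc22a8 were lower in late than in early cells in 4 of 4 libraries, and Ttr in 1 of 4. Whether the late class also holds cells of the middle segment was not tested. Another 460 cells, with H2-Aa, Cd74, Lyz2 and C1qb among their leading genes, were left unnamed. By its marker score this cluster was proximal tubule, but 0 of its 10 leading genes were proximal markers. In a finer clustering (resolution 1.5), 308 cells with Lyz2, H2-Aa, Cd74 and C1qb among their leading genes were named macrophage and myeloid cells. Another 204 cells there, led by Iigp1, Ubd and Gbp6, scored as proximal tubule and were left unnamed.

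Free RNA bears on all levels below. Barcodes with under 100 genes, which mostly hold RNA set free by other cells, held Slc7a13 at 173 to 606 and Slc6a19 at 37.1 to 307 counts per 1000000 UMIs (CPM). From markers of other classes, free RNA was estimated at 13.0% to 19.5% of the UMIs of early cells and 6.39% to 9.98% of those of late cells. The product of that share and the level in such barcodes gives, for each gene, an estimate of the level that free RNA alone would give. A measured level includes its free RNA, so where it falls below this estimate the estimate is too high.

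The first comparison was between early and late proximal cells. The neutral amino acid carrier Slc6a19, the basolateral carriers Slc3a2, Slc7a7 and Slc7a8 and the cystine light chain Slc7a9 were higher in early cells, and Slc7a13, Slc6a18 and the heavy chain Slc3a1 were lower. In the fit with edgeR's quasi-likelihood test on summed UMIs, 5 of 9 genes were called higher in early cells, 3 lower and 1 not called, at an adjusted p under 0.05 with the library as a block. Of all 6360 genes tested, 39.2% were called, 20.2% higher and 18.9% lower, so a call in itself is common in this comparison. The median log2 change of the 9 genes was 1.45, and that of all genes tested was 0.03. Levels are in CPM of the summed UMIs of a class, given in the order cortex, outer medulla, whole kidney 1, whole kidney 2, and are compared between cells and not between genes. Inner medulla had too few early cells (14) to enter this fit, and the bulk of its proximal cells were late.

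**Figure D1:**
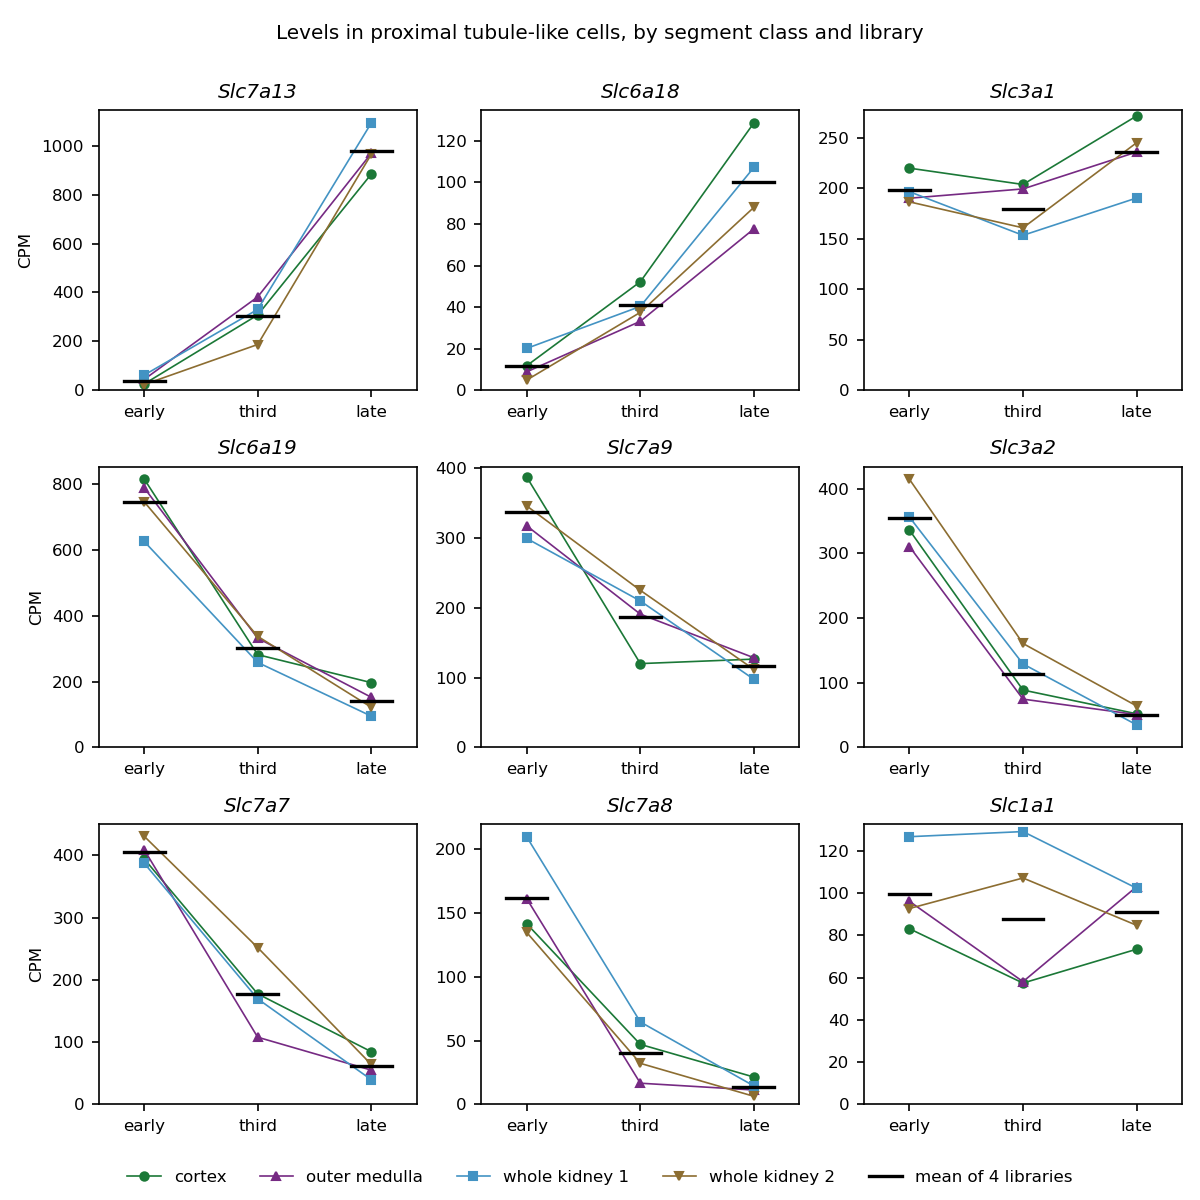
Level of each gene (vertical axis, CPM of the class, from 0) in early cells, the third cluster and late cells, with 1 line per library and a black bar at the mean of 4 libraries. Slc7a13 and Slc6a18 climb towards late cells, Slc6a19, Slc7a9, Slc3a2, Slc7a7 and Slc7a8 fall, and the groups of Slc3a1 and Slc1a1 overlap.

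The apical carriers of neutral amino acids went in opposite directions. Slc6a19 had 816, 789, 626 and 747 CPM in early cells, against 197, 152, 95.1 and 122 in late cells. The lowest early value was over 3 times the highest late value, and Slc6a19 was 4.94-fold higher in early cells (interval 4.38 to 5.57, edgeR adjusted p = 7.74e-35). Slc6a18 had 11.9, 8.94, 20.2 and 4.98 in early cells, against 129, 77.6, 107 and 88.0 in late cells, with no overlap. It was 10.1-fold lower in early cells (7.46 to 13.6, edgeR adjusted p = 1.08e-21). The early level of Slc6a18 rested on 30 UMIs and was within counting error of the free RNA level in 4 of 4 libraries, whereas its late level was above it in all 5. With free RNA subtracted the log2 change of Slc6a18 was -5.60 in place of -3.33, on a handful of UMIs left in early cells, and with the segment read from each cell's own marker UMIs it was -2.62. Slc6a18 and Slc6a19 are neighbouring genes on chromosome 13, with no other protein-coding gene between them in RefSeq's annotation.

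Taken as a share of both genes' UMIs, Slc6a18 made up 1.43%, 1.12%, 3.13% and 0.663% in early cells and 39.5%, 33.7%, 53.0% and 41.9% in late cells. As a class, early cells thus carried nearly only Slc6a19 of this pair, and the late class carried both. The third cluster lay between, at 15.6%, 9.09%, 13.5% and 10.0%. These shares are of summed UMIs and do not show that single late cells held both genes, which was rarely seen, as given further on. The cells of inner medulla classed as late held 3 Slc6a18 UMIs and 1 Slc6a19 UMI, too few for a share to be read.

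The 2 light chains of rBAT also went in opposite directions. Slc7a13 had 26.1, 44.7, 62.4 and 23.9 CPM in early cells, against 883, 968, 1092 and 964 in late cells, the widest gap among the 9 genes. It was 28.8-fold lower in early cells (24.5 to 33.9, edgeR adjusted p = 1.43e-46). Its early level was below the estimated free RNA level in 3 of 4 libraries and within counting error of it in the fourth library, outer medulla. These cells thus gave no Slc7a13 signal above the estimate, which was too high for them in those 3 libraries. In late cells Slc7a13 was above the free RNA level in all 5 libraries. With free RNA subtracted, 0 Slc7a13 UMIs were left in early cells, so the fitted log2 change of -12.1 in place of -4.85 depends on the prior count of the fit and is neither a size nor a bound. With the segment read from each cell's own marker UMIs the log2 change was -3.77.

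Slc7a9 had 387, 317, 299 and 346 CPM in early cells, against 126, 128, 97.5 and 112 in late cells. The groups did not overlap, and Slc7a9 was 2.74-fold higher in early cells (2.38 to 3.16, edgeR adjusted p = 5.35e-20). Unlike Slc7a13 at the early end, Slc7a9 stayed above the free RNA level in late cells, in 5 of 5 libraries. Slc7a13 made up 6.32%, 12.3%, 17.3% and 6.47% of the UMIs of both light chains in early cells and 87.5%, 88.3%, 91.8% and 89.6% in late cells. In the third cluster the share was 72.0%, 66.7%, 61.2% and 45.5%, and in the 56 late cells of inner medulla 96.9%.

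Their heavy chain, Slc3a1, was the flattest of the called genes. It had 220, 190, 196 and 186 CPM in early cells, against 271, 236, 190 and 245 in late cells. The groups overlap, and early cells were higher in 1 of 4 libraries, whole kidney 1. The fitted level was 1.28-fold lower in early cells (1.13 to 1.46, edgeR adjusted p = 0.00159). Early and late cells were both above the free RNA level in every library.

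**Figure D2:**
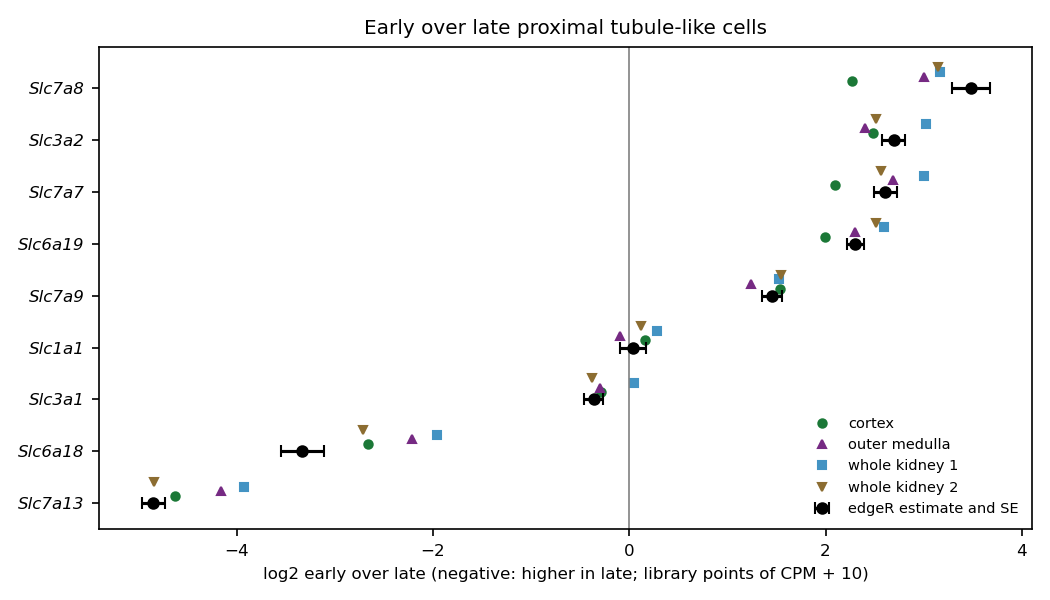
Log2 of early over late for each gene (horizontal axis, negative where early cells were lower), with black points for the edgeR estimate, bars for its SE, and coloured points for single libraries, computed from CPM plus 10, which draws the points of genes with low levels towards 0. The estimates run from -4.85 for Slc7a13 to 3.48 for Slc7a8, and the points of Slc3a1 and Slc1a1 lie on both sides of 0.

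The basolateral heavy chain and its 2 light chains were all higher in early cells. Slc3a2 had 336, 311, 356 and 415 CPM in early cells, against 52.0, 50.8, 34.9 and 64.2 in late cells. Slc7a7 had 394, 409, 387 and 431 in early cells, against 84.7, 55.0, 39.7 and 64.2 in late cells. Slc7a8 had 141, 161, 209 and 135 in early cells, against 21.4, 11.3, 14.5 and 6.34 in late cells. In none of these 3 genes did the groups overlap, and the chains of both complexes thus stood high in the same class.

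Slc3a2 was 6.48-fold higher in early cells (5.52 to 7.60, edgeR adjusted p = 1.44e-31). Slc7a7 was 6.10-fold higher (5.20 to 7.16, edgeR adjusted p = 7.28e-31), and Slc7a8 was 11.2-fold higher (8.63 to 14.5, edgeR adjusted p = 3.87e-26). The intervals of Slc3a2 and Slc7a7 overlap, whereas that of Slc7a8 lies above both. The ratios of single libraries overlap for all 3 genes. They ran from 6.60 to 21.2 for Slc7a8, 6.12 to 10.2 for Slc3a2 and 4.66 to 9.75 for Slc7a7. The late level of Slc7a8 rested on 49 UMIs and was above the free RNA level in 3 of 5 libraries. Slc3a2 and Slc7a7 were above it in late cells of 4 of 5, the exception being inner medulla, where all 3 genes had 0 UMIs in 37775.

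Slc1a1, the glutamate and aspartate carrier, had 83.1, 96.1, 127 and 92.7 CPM in early cells, against 73.4, 103, 102 and 84.8 in late cells. The groups overlap, and no difference was called (edgeR log2 change 0.04, interval -0.23 to 0.30, adjusted p = 0.855). That interval spans folds of 0.855 to 1.23 and does not show equality. Both classes were above the free RNA level in every library.

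The third cluster lay between early and late cells in 4 of 4 libraries for Slc7a13, Slc6a18, Slc6a19, Slc3a2, Slc7a7 and Slc7a8, and in 3 of 4 for Slc7a9. Against it, early cells were called higher for 5 genes and lower for 2, with Slc3a1 and Slc1a1 not called, where 12.4% of all genes were called, 5.42% higher and 7.01% lower. The third cluster over late cells gave 5 higher, 3 lower and 1 not called, where 8.22% of all genes were called, 4.29% higher and 3.93% lower. In that comparison Slc3a1 was 1.37-fold lower in the third cluster (edgeR adjusted p = 0.0415). Slc7a13, at 308, 382, 331 and 188 CPM, was above the free RNA level in the third cluster in 4 of 4 libraries. The part that the lower depth of these cells plays in their levels was not tested.

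The same order was seen in the share of single cells with a UMI, after thinning each cell to 400 UMIs, which kept 2503 early, 542 of the third cluster and 2543 late cells. Slc7a13 was found in 1.36% of early cells (exact 95% interval 0.942 to 1.89) and 31.9% of late cells (30.1 to 33.7), and the third cluster was at 8.30%. The early share was no higher than the 3.13% of distal convoluted tubule-like cells, which should lack the gene. Unthinned, Slc7a13 was found in 2.47% of early and 47.9% of late cells. Slc6a19 was found in 22.4% of early cells (20.8 to 24.1) and 5.07% of late cells (4.25 to 6.00), against 2.08% of distal convoluted tubule-like cells. These intervals pool the cells of all libraries and cover counting error only. Slc1a1 was found in 3.76% of early and 3.50% of late cells. Slc3a1 in whole kidney 1 was found in 7.41% of early cells (5.27 to 10.1) and 7.34% of late cells (5.34 to 9.80).

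For Slc3a2, Slc7a7 and Slc7a8 the thinned shares were 13.5%, 14.9% and 6.39% of early cells, and 1.81%, 2.20% and 0.590% of late cells. The thinned shares in distal convoluted tubule-like cells were 2.34% for Slc3a2 and 1.82% for Slc7a7. Those cells do not lack Slc3a2, whose level there was above the free RNA level in 2 of 4 libraries, so that their share is not a measure of background for it. Partner chains were rarely seen in 1 cell. In thinned late cells Slc3a1 was found in 12.9% of the 811 cells with Slc7a13 and in 8.89% of those without, and the share was the larger in each of the 5 libraries. In thinned early cells Slc3a2 was found in 13.6% of the cells with Slc7a7 and in 13.5% of those without. The neutral amino acid carriers Slc6a18 and Slc6a19 were also rarely seen together. Of 2543 thinned late cells, 102 held Slc6a18, 129 held Slc6a19 and 1 held both. Slc6a19 was thus found in 0.98% of the late cells with Slc6a18 and in 5.24% of those without, a difference that was not tested. Collectrin, by contrast, was near everywhere: Tmem27 was found in 88.1% of thinned early cells with Slc6a19 and in 86.0% of those without.

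The second comparison set proximal cells against all other cells of the same library. All 9 genes were called higher in proximal cells by edgeR, where 45.3% of 5867 genes tested were called, 22.5% higher and 22.7% lower. Their median log2 change was 1.73, and that of all genes was -0.03. Slc7a13 was 6.14-fold higher in proximal cells (3.58 to 10.5, edgeR adjusted p = 0.00018), and Slc3a1 4.46-fold (3.03 to 6.55, adjusted p = 5.92e-05). Slc6a18 was 4.27-fold higher, Slc1a1 4.26-fold, Slc7a9 3.31-fold and Slc6a19 3.11-fold. Slc7a8 was 2.76-fold, Slc7a7 2.37-fold and Slc3a2 2.29-fold higher (1.91 to 2.75, edgeR adjusted p = 1.81e-05), the last being the general partner chain used by many cell types.

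The other cells include the unnamed cluster, which scored as proximal tubule and may hold both proximal and myeloid cells. It carried 380 to 690 CPM of Slc6a19, 303 to 421 of Slc7a7 and 188 to 369 of Slc7a9. Against proximal cells 1 of the 6 genes tested was lower, Slc7a13 by 1.38 on the log2 scale (edgeR adjusted p = 0.00271), where 1.58% of all genes were lower. The share of proximal tubule markers in this cluster was at or above 100% of that in free RNA in each of 4 libraries. Without that cluster, an alternative added after seeing the data, the log2 change of Slc6a19 was 2.71 in place of 1.64, that of Slc7a9 2.77 in place of 1.73, and all 9 genes remained called higher. With free RNA subtracted the other cells were left with 0 Slc7a13 UMIs, so that its fitted log2 change of 12.2 is not a size. With cells of at least 500 genes it was 1.10. Under the same settings the log2 change was 1.05 with cells of at least 500 genes and 5.64 with free RNA subtracted for Slc3a1, 1.04 and 6.70 for Slc6a18, and 1.34 and 4.62 for Slc1a1, with few or no UMIs of these genes left in the other cells after subtraction. With cells of at least 500 genes, a cluster of 36 cells led by Cyp7b1, Slc22a19 and Serpina1f, all late markers, was left unnamed. It scored as thin limb and was counted with the other cells, and its part in the lower folds was not tested. In the other cells free RNA was estimated from proximal markers, so subtracting it takes proximal RNA out of them by construction. The folds thus depend on free RNA and on the cells kept and named. All 9 genes stayed called higher in each alternative run, but after that subtraction the call is no separate support.

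**Figure D3:**
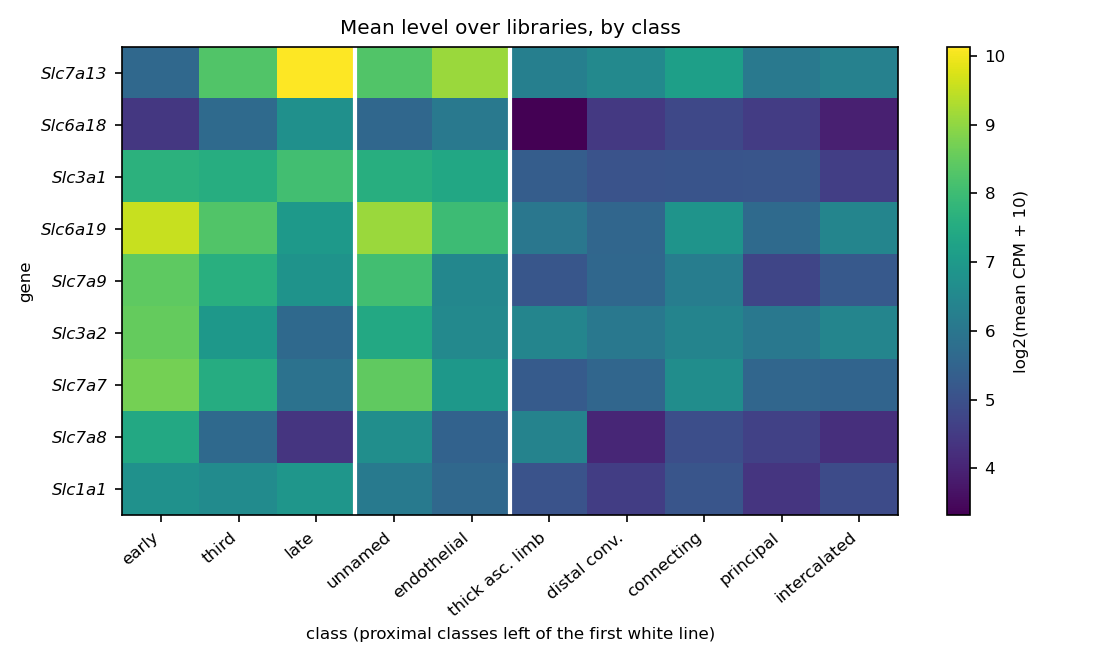
Mean level of each gene over libraries (colour, log2 of CPM plus 10) in the proximal classes, the unnamed cluster, endothelial-like cells and 5 distal and collecting duct classes. Slc3a1, Slc6a18 and Slc7a13 are brightest in late cells, and Slc6a19, Slc7a9, Slc3a2, Slc7a7 and Slc7a8 in early cells. The distal columns are darker than that, but late Slc7a8 and Slc3a2 and early Slc7a13 and Slc6a18 are as dark as distal classes. Late Slc7a7 is darker than Slc7a7 in connecting tubule. From UMIs summed over libraries these are 61.8 and 82.5 CPM, with intervals that overlap. Slc7a8 in thick ascending limb (mean 72.6 CPM, on 11 UMIs, most of them from cortex) stands above late cells (10.7).

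Class by class, 6 of the 9 genes passed the filter on low counts (Slc6a18, Slc7a8 and Slc1a1 did not), and these 6 had to be counted somewhere to pass. A gene low in distal cells could pass only through higher sums elsewhere, such as the proximal ones. Lower calls in distal classes are therefore partly set by the filter and are no separate support. All 6 were called lower than in proximal cells in thick ascending limb, distal convoluted tubule, connecting tubule, principal and intercalated cell-like cells, where 22.5%, 25.8%, 20.6%, 27.9% and 24.8% of 2463 genes were lower. Slc3a2 was the least reduced of the 6 in 4 of these classes, at 2.35-fold lower in thick ascending limb (edgeR adjusted p = 0.00979), and at 56.2 to 76.0 CPM in the means of the 5 classes. In connecting tubule its reduction of 2.56-fold was matched by Slc7a7, also 2.56-fold. Against early cells the proximal mean hides a range: the late proximal mean of Slc3a2, 40.4 CPM over 5 libraries with inner medulla at 0, was below these distal means. That order depends on weighting all libraries equally. From UMIs summed over libraries, the late level was 51.6 CPM (44.6 to 59.3). The principal class then lay below it, with 44.2 CPM (28.6 to 65.3). The remaining distal classes lay above it, between 58.4 CPM (distal convoluted tubule) and 74.5 CPM (intercalated), with intervals that overlap the late one. That comparison of late and distal cells was not tested.

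Levels in the 5 distal and collecting duct classes were then set against the free RNA level, in 22 sums of class and library. Of 198 pairs of gene and sum, 14 lay above the free RNA level by counting error, 182 within it and 2 below. Slc3a2 accounted for 7 of the 14, including thick ascending limb of cortex with 5 UMIs and inner medulla principal cells with 11 UMIs. Slc7a13, Slc3a1, Slc7a9 and Slc1a1 accounted for 0 of 22 each. Slc7a8 was above it in thick ascending limb of cortex with 7 UMIs, or 213 CPM, and of whole kidney 1 with 3 UMIs. In thick ascending limb of outer medulla, with 234 cells, Slc7a8 had 1 UMI, and in that of inner medulla and whole kidney 2 it had 0.

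**Figure D4:**
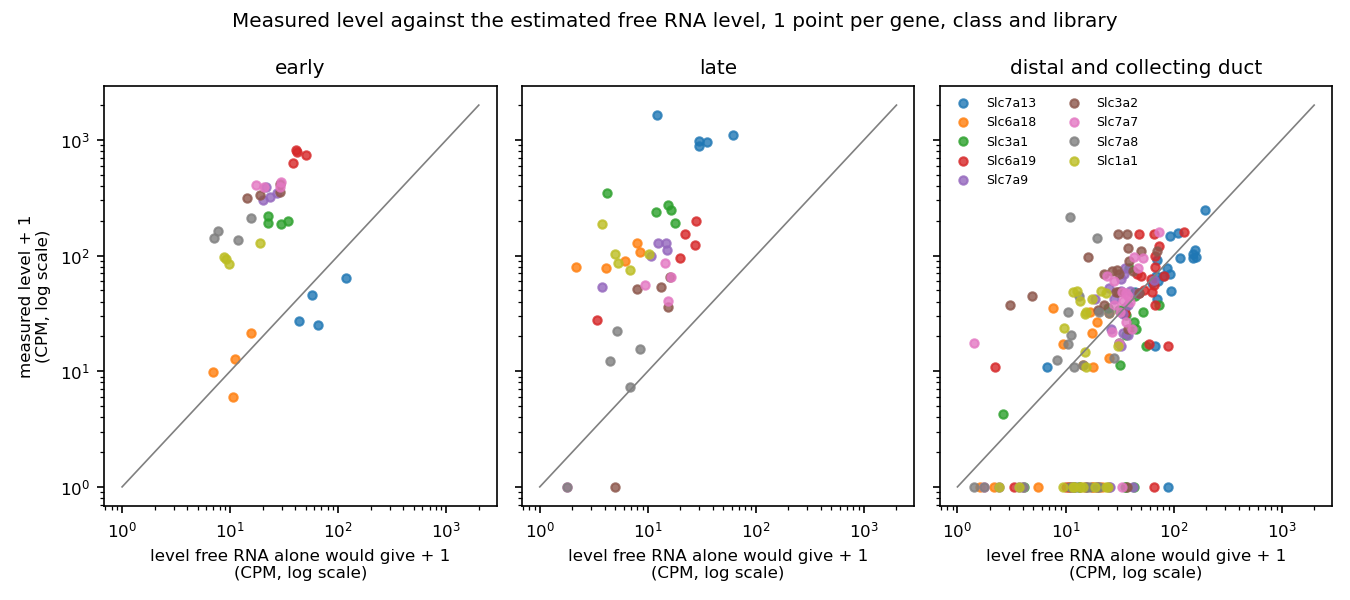
Measured level (vertical axis) against the level that the estimated free RNA alone would give (horizontal axis), both as CPM plus 1 on log scales, with 1 point per gene, class and library and a grey line where they are equal. Early cells lie above the line except for Slc7a13 and Slc6a18, late cells lie above it for Slc7a13, Slc6a18, Slc3a1, Slc7a9 and Slc1a1 in all libraries, and distal and collecting duct sums scatter around it.

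Endothelial-like cells also departed from the distal classes, as the unnamed cluster did. Slc7a13 was at 390 to 695 CPM in 3 libraries (cortex, outer medulla and whole kidney 2). The proximal cells of those libraries had 470, 589 and 520 CPM. Slc7a13 was not called different (edgeR log2 change -0.18, interval -0.85 to 0.49, adjusted p = 0.735). Slc3a1 was not called either (log2 change -0.79, adjusted p = 0.105), and the other 4 genes tested were lower, where 13.5% of all genes were. The share of proximal tubule markers in these cells was 82.0% to 100% of that in free RNA (100% being the most the estimate can give), and 11.0% of the 246 cells held a Slc7a13 UMI. In endothelial-like cells Slc7a13 and Slc6a19 were each above the free RNA level in 1 of 3 libraries. How far RNA of proximal cells makes up these levels was not tested. Podocyte-like cells, 57 in all, held 0 Slc7a13 UMIs in 28857, which allows up to 104 CPM, the level of 3 counts.

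Regions were compared without a test, since each had 1 library. The outer medulla library held 597 early proximal, 15 podocyte-like and 116 distal convoluted tubule-like cells. The inner medulla library held 91 proximal cells. How far the dissected libraries hold cells of neighbouring regions was not tested, so the values are those of libraries. The late share of proximal cells was 35.5% for cortex (of 2262), 42.0% for outer medulla (of 1541) and 61.5% for inner medulla (50.8 to 71.6, of 91). In the 2 whole kidney libraries it was 45.3% (whole kidney 1) and 38.9% (whole kidney 2), so cortex and outer medulla differed about as libraries of 1 kind did. Over all proximal cells, Slc7a13 stood at 470 CPM in cortex, at 589 in outer medulla and at 1176 in inner medulla. Its ratio of outer medulla to cortex was 1.25 (exact interval 1.14 to 1.38), and those of Slc6a19, Slc3a2, Slc7a7, Slc6a18 and Slc7a9 were below 1, at 0.846, 0.827, 0.826, 0.681 and 0.854. Whole kidney 2 over whole kidney 1, libraries of 1 kind, gave intervals that left out equality for 8 of 9 genes, with Slc7a13 at 0.794 and Slc6a19 at 1.31. Over the 9 genes, outer medulla over cortex ran from 0.681 to 1.27 and whole kidney 2 over whole kidney 1 from 0.680 to 1.35, so that the spread between libraries of 1 kind was as wide.

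Within early cells, the outer medulla to cortex interval included equality for all 9 genes, with Slc6a19 at 0.967 (0.848 to 1.10) and Slc3a2 at 0.924 (0.749 to 1.14). Within late cells it left out equality for Slc6a18 at 0.604 (0.432 to 0.835), Slc6a19 at 0.774 (0.606 to 0.985) and Slc7a7 at 0.650 (0.433 to 0.962), and Slc7a13 was at 1.10 (0.990 to 1.21). Whole kidney 2 over whole kidney 1 left out equality for 4 of 9 genes in early cells and for 4 of 9 in late cells, among them Slc3a2 at 1.84 (1.19 to 2.91) and Slc7a7 at 1.62 in late cells, so libraries of 1 kind differed in no fewer genes than outer medulla and cortex did. The late cells of inner medulla, 56 in number, had 62 Slc7a13 UMIs, or 1641 CPM, a ratio to cortex of 1.86 (1.41 to 2.41). Slc6a19, with 1 UMI, was at a ratio of 0.134 (0.00339 to 0.758), and the intervals of the other 7 genes included equality. They also had 13 Slc3a1 and 7 Slc1a1 UMIs. These intervals cover counting error only, and the region cannot be told apart from its 1 library.

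**Figure D5:**
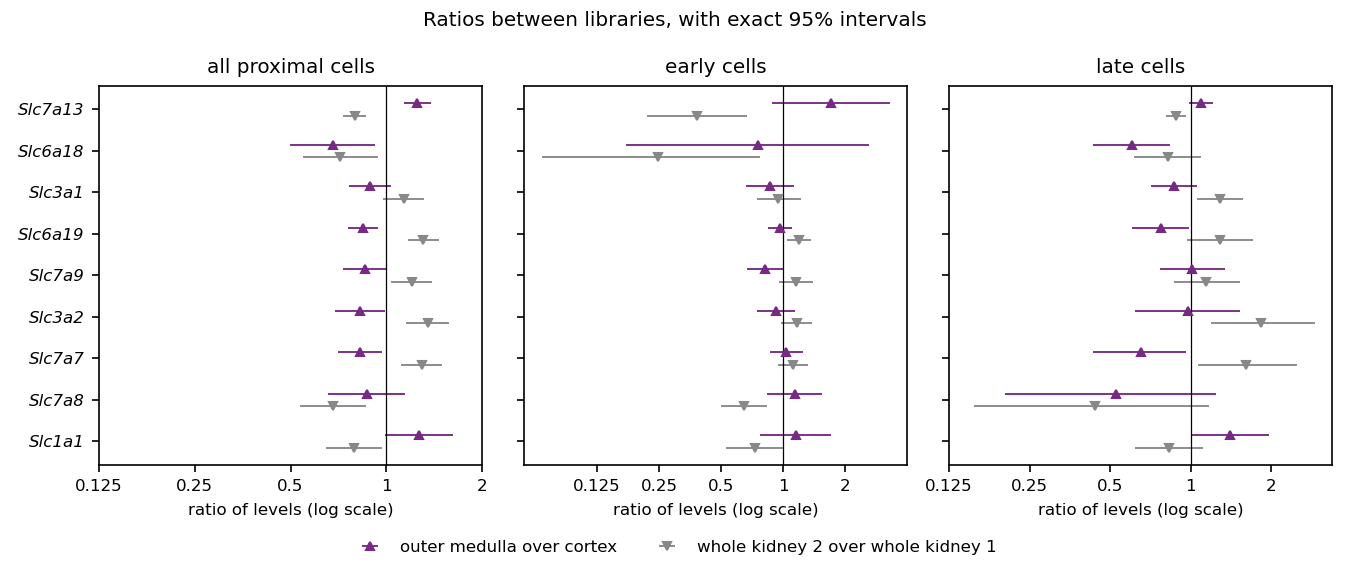
Ratio of levels (horizontal log axis) of outer medulla over cortex and of whole kidney 2 over whole kidney 1, in all proximal cells, early cells and late cells, with exact 95% intervals as bars. In all proximal cells most grey intervals leave out 1, and in early cells all outer medulla intervals include it.

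Other amino acid transport genes were counted for comparison. Of 43 on the list 41 were listed in the files, and 12 passed the filter of the early and late fit, of which 6 were called higher in early cells, 2 lower and 4 not called, where 20.2% of all genes were called higher and 18.9% lower. Slc43a2, a basolateral carrier of large neutral amino acids, had 142, 152, 176 and 173 CPM in early cells and 18.4, 14.1, 22.9 and 25.4 in late cells (edgeR log2 change 2.84, SE 0.16, adjusted p = 3.82e-25). Slc16a10, the basolateral carrier of aromatic amino acids, had 115, 132, 165 and 84.7 in early cells and 14.3, 24.0, 36.1 and 23.0 in late cells (log2 change 2.22, adjusted p = 1.46e-17).

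The partner collectrin (Tmem27) was higher in early cells by 0.63 on the log2 scale (edgeR adjusted p = 1.09e-14), at 5227, 6599, 6126 and 5863 CPM in early cells and 3514, 3861, 3361 and 3520 in late cells. This difference was smaller than that of Slc6a19 and ran against that of Slc6a18. The creatine carrier Slc6a8 (1.45), the proton-coupled Slc36a1 (1.02) and the taurine carrier Slc6a6 (0.52) were higher in early cells. Slc6a13, a basolateral carrier of GABA and taurine (-0.77), and the peptide carrier Slc15a2 (-0.51) were lower. The imino acid carrier Slc6a20b and Slc38a10 were not called (-0.10 and -0.42).

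Against other cells, 8 of 12 genes on this list were called higher in proximal cells, 1 lower and 3 not called, where 22.5% of all genes were higher and 22.7% lower. The lower one was Slc38a2, a widely used carrier of small neutral amino acids (edgeR log2 change -1.39, adjusted p = 0.000558). Slc43a2, at a log2 change of 0.00011 (adjusted p = 0.999), was higher in intercalated cell-like cells than in proximal cells (log2 change 1.78, adjusted p = 2.19e-05, where 21.4% of all genes were higher), with 54 UMIs, or 310 CPM, over the intercalated cells of all libraries. None of the 6 genes of the main set tested there was called higher in a distal class, though they could pass the filter through their proximal sums.

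Across 43 sums of class and library, the genes most like 8 of the 9, by Pearson correlation of log2(CPM + 10) over 5375 genes, were named by rule. The sums share libraries, so the values are descriptions. Slc7a13 was most like Cndp2 (0.91) and Mpv17l (0.86), and Cndp2 (0.78) was also the gene most like Slc6a18. Slc6a19 was most like Maf (0.89), and Slc7a7 most like Cyp2d26 (0.88). Slc3a1 was most like Apom (0.92), Slc7a9 most like Slc13a1 (0.91), Slc3a2 most like Slc34a3 (0.72) and Slc1a1 most like Mettl26 (0.82).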

How the data were processed

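The deposited values are raw UMI counts for each symbol in each barcode. The submitters' processing notes name build mm9 and Seurat 2.3.1 without a role, and for the aligner the sources used here give nothing. The 9 genes and all lists were chosen with earlier results of these data known. Cells (at least 200 genes) were clustered with scanpy 1.11.5 (2000 variable genes, 30 components, leidenalg 0.10.2, resolution 1.0) and clusters were named from marker lists. Scrublet marked 22 cells (0.182%), too few to have worked, and none were removed. UMIs were summed per library and class (at least 30 cells and 20000 UMIs) and fitted with edgeR 4.0.16 (TMM, filterByExpr, quasi-likelihood test, Benjamini-Hochberg over all genes tested, library as a block, since both sums come from 1 suspension), checked on simulated data. Intervals are 95%, exact for counts and cover counting error only. TMM moved the median log2 change of all genes by -0.11 in early over late and by 0.28 in proximal over other cells. Named genes are the 9, other amino acid transport genes with at least 100 UMIs (at most 12), and the 2 genes most like each of the 9. Alternatives changed cells, doublets, clustering, scaling, filter, tool, block, free RNA and libraries. Some genes that the rules would name are not reported here.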

Additional observations from a re-analysis of the deposited data

Results flagged for a closer look

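The early over late difference of Slc1a1 had opposite signs in single libraries: -0.09 on the log2 scale (CPM plus 10) in outer medulla, against 0.28 in whole kidney 1 and 0.12 in whole kidney 2. It was brought up because the 1 outer medulla library moved one way and both whole kidney libraries the other. The difference between them was not tested, and the fit over all libraries called no difference.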

How the results depend on the processing

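All 9 genes kept their direction and their side of the threshold in both main comparisons under each alternative run, except that Slc1a1, which was not called, had an early over late log2 change of -0.0055 with segments from marker UMIs, -0.00092 with no filter on low counts and -0.036 without whole kidney 1 (-0.036 to 0.0824 over leaving out each library). Without the library block, the replicate block of these fits, 5 genes were still called higher and 3 lower in early cells and 9 higher in proximal cells, and Slc3a1 had an adjusted p of 0.0390 in place of 0.00159. The count of all genes called lower in proximal cells, 1334, became 2200 with no TMM factors and 3609 with no filter on low counts, and ran from 1064 to 1948 over leaving out each library. Gene and class pairs called higher than proximal were 0 and became 1 without inner medulla, for Slc7a7 in the unnamed cluster. Early over late sizes moved by over 1.5 times with cells of at least 500 genes, where the log2 change was 4.63 for Slc7a8, -5.84 for Slc7a13, 3.02 for Slc6a19 and 3.20 for Slc7a7, and with free RNA subtracted, where it was 4.20 for Slc7a8 and -5.60 for Slc6a18; Slc7a13 was at -4.17 with clusters at resolution 0.6. Proximal over other sizes moved by over 1.5 times for each of the 9 genes under at least 1 setting, with ranges of 1.05 to 5.64 for Slc3a1, 1.04 to 6.70 for Slc6a18 and 1.34 to 4.62 for Slc1a1. The low ends are those with cells of at least 500 genes, where 36 cells led by late markers counted as other cells. The median of 488 UMIs per cell limits what single cells show of the lower genes, Slc6a18 and Slc7a8 above all.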
